A study of Mus musculus with 14 samples.

Results

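Interferon-stimulated genes were examined by name in the RNA of mouse mammary epithelial cells that did or did not overexpress Usp22, a ubiquitin-specific protease of the SAGA transcriptional coactivator. The members are 44 genes chosen for their known induction by interferon, and all 44 were found by symbol among the 16124 genes of the count table. The rule for membership uses symbols and no measured value, although the list was drawn up with earlier results of these data known. The cells came from 7 pairs of nulliparous female littermates, numbered 1, 3, 4, 5, 6, 7 and 8, killed at 3.5 months of age. Each pair held 1 wild-type mouse (WT) and 1 mouse homozygous for the transgene (Usp22 OE/OE), with 1 library per mouse. The transgene was a Flag- and Myc-tagged Usp22 inserted at ROSA26 behind a CAGGS promoter, and germline excision of the stop cassette by Zp3-Cre made it active throughout the body, so the cells that surround the epithelium carried it as well. Epithelial organoids were prepared by collagenase digestion and differential centrifugation of the number 2, 3 and 4 glands, with the lymph nodes of the number 4 glands taken out, and were then dissociated to single cells. No sorting step followed, so these are bulk preparations in which fewer cells of a type and less RNA per cell cannot be told apart.

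Interferons are cytokines released when a cell senses foreign or misplaced nucleic acid. Type I and type III interferons act through JAK1 and TYK2, and their signal reaches STAT2 and IRF9, which act at the interferon-stimulated response element, whereas interferon gamma acts through JAK1 and JAK2, and its signal reaches the gamma-activated site. The induced genes block viral replication, present antigen and carry the signal further, and many tissues hold a low tonic level of them in the absence of infection.

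The promoters of the genes were searched for these elements, because the same factors are known to act on many of these genes. A further reason was that most members were seen to differ in the same direction within pair 1 and within pair 4. RefSeq promoter sequences of build GRCm38.p6 matched 33 of the 44 members by symbol, and the 250 bases upstream of each start were read on both strands. The letters GAAANNGAAA, the core of the interferon-stimulated response element, were present in 12 of the 33 (Bst2, Gbp2, Gbp3, Gbp7, Ifit1, Ifit3, Igtp, Irgm1, Isg15, Oas1a, Rsad2 and Stat2), against 2.98% of all 32851 promoters. The letters TTCNNNGAA of the gamma-activated site, a palindrome, were present in 8 of the 33 (Bst2, Eif2ak2, Gbp7, Ifit2, Igtp, Irf1, Oas1a and Psmb8), against 7.02% of all promoters, and 4 members (Bst2, Gbp7, Igtp and Oas1a) held both. The members were counted as genes, with a match in any of their 37 promoters. The background was counted over single promoters, so the shares are not fully alike. A match is a description of the letters and not a measured binding site. The windows shown are 60 bases long, belong to the members with the response element whose values are given in full below, and run 5′ to 3′ on the strand of the gene with the match nearest to the start in capitals. The first window is Bst2 at chr8:71537562-71537621 on the minus strand, the second Gbp2 at chr3:142620579-142620638 on the plus strand, the third Irgm1 at chr11:48871421-48871480 on the minus strand, the fourth Isg15 at chr4:156200850-156200909 on the minus strand and the fifth Rsad2 at chr12:26456538-26456597 on the minus strand, all GRCm38.p6. In Gbp2 and Rsad2 the element lies on the opposite strand and is printed as its reverse complement.
Bst2: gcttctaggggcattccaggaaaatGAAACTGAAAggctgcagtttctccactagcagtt
Gbp2: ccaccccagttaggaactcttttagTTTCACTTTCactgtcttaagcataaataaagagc
Irgm1: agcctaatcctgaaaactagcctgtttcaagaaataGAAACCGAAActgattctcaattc
Isg15: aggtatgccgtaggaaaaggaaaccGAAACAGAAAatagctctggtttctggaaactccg
Rsad2: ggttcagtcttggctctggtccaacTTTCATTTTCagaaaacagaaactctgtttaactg
The element begins 124 bases upstream of the listed start in Bst2, 59 bases upstream in Gbp2, 24 bases upstream in Irgm1, 66 bases upstream in Isg15 and 120 bases upstream in Rsad2. The gene coordinates given below come from another annotation, GENCODE. In Gbp2 and Irgm1 they begin further upstream than the listed start, so there the element lies inside the GENCODE gene. The search found 3 matches, overlapping ones included, in the promoter of Isg15, 2 each in Bst2 and Irgm1, and 1 each in Gbp2 and Rsad2.

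Libraries held between 20125106 and 41835978 counted fragments, the shallowest being the WT libraries of pair 1 (20125106) and pair 8 (22632805). The level of Usp22 ran from 3500 to 5380 normalized counts over the 7 WT libraries and from 74948 to 144288 over the 7 OE/OE libraries, so the genotype labels held for all 14. All 8 epithelial markers (such as Epcam, Krt8 and Krt14) were present in every library, but so were markers of other cells: none of the 12 leukocyte and macrophage markers and none of the 9 endothelial markers was at 0 in any library. The OE/OE library of pair 4 stood apart from the others over the whole table. It had the lowest value of the 14 libraries for 25.3% of all genes and the highest for 27.0%. The numbers of genes called and the median fold change of the members are given with and without its pair. Most other results are given only with it.

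The members covered a wide range of levels. Expressed per kb of exon, which allows genes of different length to be compared, the mean normalized count over the 14 libraries ran from 4.7 for Mx1 to 2351 for Iigp1, with a median of 279.9 over the 44 members and 132.3 over all genes. Iigp1 was followed by Gbp2 (2098), Irf1 (2008), Bst2 (1596), Isg15 (1558) and Ifi27 (1481 per kb), so the abundant members were a mixture of interferon-inducible GTPases, a transcription factor and short secreted or membrane-bound effectors. Neighbours at the top of this order did not separate beyond their spread. Gbp2 ranged from 1147 to 3778 normalized counts per kb over the 14 libraries, which includes the means of Iigp1 and Irf1, and Isg15 from 626.4 to 3135 per kb, which includes those of Bst2 and Ifi27. At the other end, Mx1, an antiviral GTPase whose gene carries a disabling deletion in many laboratory strains, had only 8.5 to 27.5 normalized counts in any library, and Herc6 (22.9 per kb), Oas2 (23.7 per kb) and Ifi44 (49.8 per kb) were the next lowest.

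No member passed the threshold of the study's methods, an unadjusted p of 0.05 or less, when OE/OE was compared with WT within littermate pairs. limma's test on log2(normalized count + 1) with the pair as a block called 0 of the 44 members, against 3.81% of all 16124 genes. The count was also 0 of 44 with edgeR (3.7% of all genes), with DESeq2 (3.88%), with the per-gene paired test of the study's methods (3.99%) and with limma without the pair (1.13%). The smallest unadjusted limma p among the members was 0.086, for Ifi44. After Benjamini-Hochberg adjustment 0.0124% of all genes, 2 in number, and no member had an adjusted p under 0.05 in limma, and every member had the same adjusted p of 1.00. By the sign of the fitted value the members split evenly, 22 above and 22 below 0, and their median log2 fold change was -0.00034 against -0.0015 for all genes. No member lay on the same side in all 7 pairs, against 1.51% of all genes, a share too small to set 44 members apart. Rsad2 was higher in OE/OE in 6 of 7 pairs, and Psmb8 and Dhx58 were lower in 6 of 7. The share of all genes with 6 of 7 pairs on the same side is not given here.

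The intervals show which changes the 7 pairs could still hold. The 95% interval of the fold change stayed inside a 2-fold change in either direction for 43 of the 44 members, the exception being Xaf1 (-0.33 to 1.03 on the log2 scale). It stayed inside a 1.5-fold change for 34 members, and reached beyond it for Ifit1, Ifit3, Isg15, Ifi44, Mx2, Rsad2, Xaf1, Oas1a, Iigp1 and Irgm1. The standard error of the log2 fold change had a median of 0.14 over the members, equal at 2 decimals to the 0.14 of all genes, and was smallest for Tap1 (0.06) and largest for Xaf1 (0.30).

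**Figure D1:**
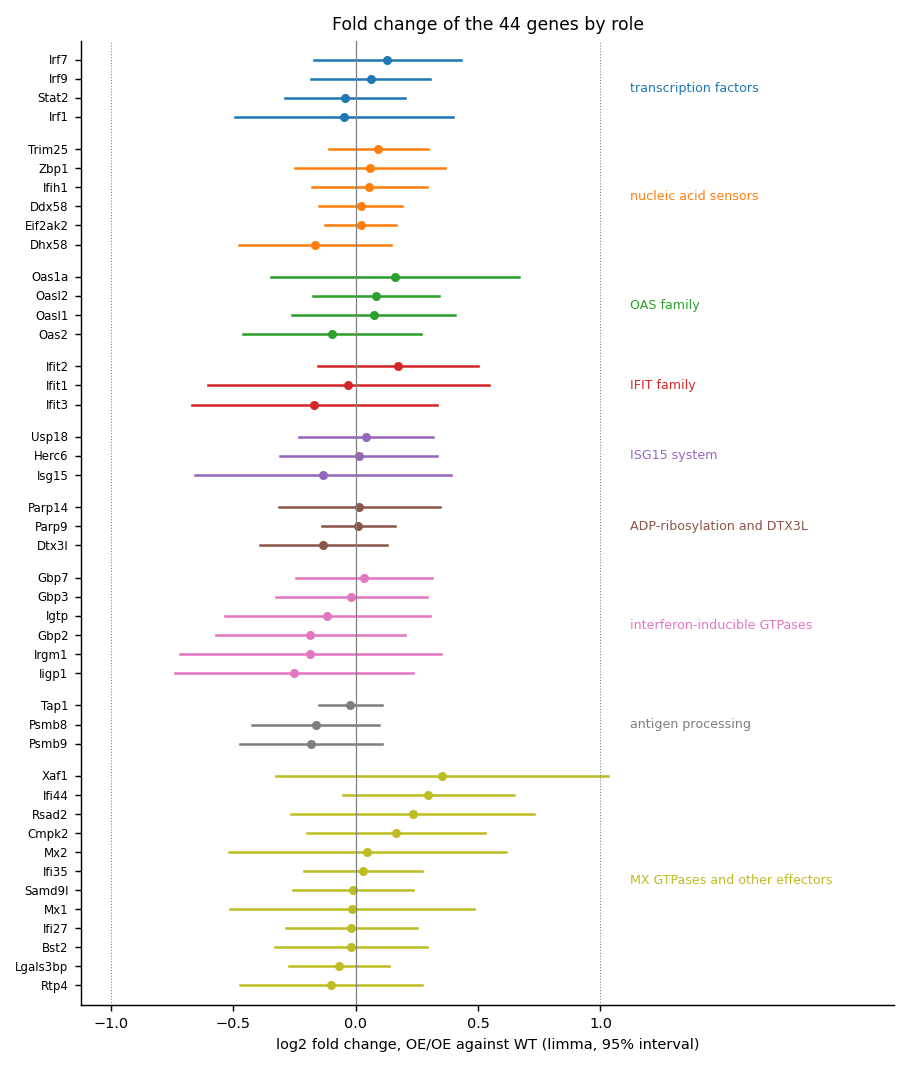
Log2 fold change of each of the 44 interferon-stimulated genes in Usp22 OE/OE against WT (points) with its 95% interval (lines), from limma with the littermate pair as a block (n = 7 pairs). Genes are grouped by role, the dotted lines mark a 2-fold change, and every interval crosses 0.

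Among the transcription factors, Irf1 was the most abundant and the most variable. IRF1 is induced by interferon gamma and by type I interferon and switches on antigen presentation and GTPase genes. In WT, Irf1 (GRCm38 chr11:53770014-53778374) had a lowest, median and highest value of 6300, 7716 and 9836 normalized counts, and in OE/OE of 2803, 7998 and 12215. The OE/OE group contained both the lowest and the highest library, so the WT range lay within that of OE/OE, and the log2 fold change was -0.05 ± 0.20 (SE, n = 7 pairs, limma p = 0.81, exact sign-flip p = 0.91). Irf7, which amplifies type I interferon production, had 289.3 normalized counts per kb and a log2 fold change of 0.13 ± 0.13. Irf9 (556.0 per kb) and Stat2 (309.8 per kb), which act together at the response element, had log2 fold changes of 0.06 ± 0.11 and -0.04 ± 0.11.

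The nucleic acid sensors had fold changes close to 0 and none was called. Ddx58, which encodes the RNA sensor RIG-I, had 233.7 normalized counts per kb and a log2 fold change of 0.02 ± 0.08, and Ifih1, which encodes MDA5, had 175.5 per kb and 0.06 ± 0.10. Dhx58 (LGP2, a helicase that tunes both) had 83.7 per kb and the only negative value of the 6 sensors, -0.17 ± 0.14 (limma p = 0.25, exact sign-flip p = 0.27). Eif2ak2, the double-stranded RNA-dependent kinase PKR (253.2 per kb), had 0.02 ± 0.07. Trim25, the ubiquitin ligase that acts on RIG-I, was the most abundant of the group at 1194 per kb and had 0.09 ± 0.09, and Zbp1, the Z-nucleic acid sensor, had 64.1 per kb and 0.06 ± 0.14.

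The OAS and IFIT families, which degrade or sequester viral RNA, also held no called member, and the 2 genotypes overlapped. Oas2 (chr5:120730333-120749853), a synthetase of 2′-5′-oligoadenylate, had 57.9, 87.5 and 181.0 normalized counts in WT (lowest, median, highest) and 66.2, 89.5 and 142.4 in OE/OE. The OE/OE values lay inside the WT range, and the log2 fold change was -0.10 ± 0.16 (limma p = 0.56, exact sign-flip p = 0.52). Oas1a (64.04 per kb) had 0.16 ± 0.23, and the catalytically inactive or atypical relatives Oasl1 (83.8 per kb) and Oasl2 (136.3 per kb) had 0.08 ± 0.15 and 0.08 ± 0.11. Ifit1 (707.7 per kb), which binds viral RNA caps, had -0.03 ± 0.26, Ifit2 (134.4 per kb) 0.17 ± 0.15 and Ifit3 (276.6 per kb) -0.17 ± 0.22. Oas1a and Ifit3 have near-identical neighbours in the mouse genome, so the division of fragments between copies is uncertain.

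In the ISG15 system, Isg15 itself was one of the most variable genes between mice. ISG15 is a ubiquitin-like protein that is attached to other proteins and also secreted. Isg15 (chr4:156199424-156200818) had 584.2, 1276 and 1827 normalized counts in WT (lowest, median, highest) and 473.5, 771.0 and 2370 in OE/OE. Both genotypes spanned low and high libraries and the groups overlapped along most of their range, with a log2 fold change of -0.13 ± 0.23 (limma p = 0.58, exact sign-flip p = 0.67). Usp18, the protease that removes ISG15 and restrains the type I receptor, had 156.8 per kb and 0.04 ± 0.12, and Herc6, the mouse ligase for ISG15, had 0.01 ± 0.14. The ADP-ribosyltransferase genes Parp9 (459.7 per kb) and Parp14 (492.0 per kb) had 0.01 ± 0.07 and 0.02 ± 0.15, and Dtx3l (477.5 per kb), the ubiquitin ligase that pairs with PARP9, had -0.13 ± 0.12. Parp9 and Dtx3l lie head to head and their annotated starts overlap by 681 bases, so 9.4% and 8.0% of their exon bases are shared, and a count that does not use strand cannot divide the fragments there.

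The interferon-inducible GTPases, which attack the vacuoles of intracellular pathogens, included 3 of the members named for the lowest fold changes, yet none passed the test. Iigp1 had 8904, 15211 and 18433 normalized counts (lowest, median, highest) in WT and 4831, 13926 and 16698 in OE/OE. The lowest OE/OE value, that of pair 4, lay far below the other 6, which overlapped with WT, and the log2 fold change was -0.25 ± 0.22 (95% interval -0.74 to 0.24, limma p = 0.27, exact sign-flip p = 0.41). Irgm1 (chr11:48861968-48871683, 1009 per kb) had 3843, 6359 and 8084 in WT and 2785, 5187 and 9796 in OE/OE, a log2 fold change of -0.18 ± 0.24 (limma p = 0.46, exact sign-flip p = 0.61). Gbp2 (chr3:142620602-142638008) had 4092, 5436 and 6889 in WT and 2887, 4161 and 9505 in OE/OE, a log2 fold change of -0.18 ± 0.17 (limma p = 0.31, exact sign-flip p = 0.44). For Irgm1 and Gbp2 the WT range lay within the OE/OE range. The ends of that range were the pair 4 library at the bottom and the pair 1 library at the top. In pair 4 the log2 ratios were -1.38 for Iigp1, -1.54 for Irgm1 and -1.10 for Gbp2. The fold changes of these genes without pair 4 alone are not given here. The other members of the group were Igtp (878.2 per kb, -0.11 ± 0.19), Gbp3 (283.2 per kb, -0.02 ± 0.14) and Gbp7 (144.2 per kb, 0.03 ± 0.12), and this family too has close copies that could share fragments.

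The antigen-processing genes all had values below 0, without passing the test. Psmb9 (chr17:34181987-34187764), a subunit of the immunoproteasome, had 326.4, 843.4 and 1066 normalized counts in WT (lowest, median, highest) and 349.5, 848.0 and 1039 in OE/OE. The groups covered the same range, and the log2 fold change was -0.18 ± 0.13 (limma p = 0.19, exact sign-flip p = 0.25). Psmb8, another immunoproteasome subunit (697.8 per kb), had -0.16 ± 0.12 and was lower in OE/OE in 6 of 7 pairs, and Tap1, which carries peptides into the endoplasmic reticulum (449.7 per kb), had -0.02 ± 0.06. The starts of Psmb9 and Tap1 overlap by 211 bases, and 14.7% of the Psmb8 exon bases are shared with a model on the other strand.

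The effectors held the highest fold changes, again within the spread between pairs. Xaf1 (chr11:72301629-72313733), a pro-apoptotic antagonist of XIAP, had 249.7, 330.5 and 624.6 normalized counts in WT (lowest, median, highest) and 273.2, 454.2 and 926.7 in OE/OE. The log2 fold change was 0.35 ± 0.30 (limma p = 0.27, exact sign-flip p = 0.42), with values in the 7 pairs from -1.04 in pair 5 to 1.82 in pair 1. Ifi44 (chr3:151730922-151749960) had 199.3, 267.6 and 340.4 in WT and 205.2, 293.9 and 637.9 in OE/OE, with a log2 fold change of 0.30 ± 0.16 (95% interval -0.05 to 0.65, limma p = 0.086, exact sign-flip p = 0.23). It was higher in 4 pairs, by 0.90 in pair 3, 0.75 in pair 1, 0.62 in pair 6 and 0.01 in pair 4, and the other 3 pairs lay between -0.12 and -0.01. Rsad2 (chr12:26442746-26456452), which encodes viperin, had 465.7, 536.0 and 743.1 in WT and 227.3, 643.1 and 1763 in OE/OE. The WT values were narrow, while OE/OE held the lowest library (pair 4) and the highest (pair 1), a 7.76-fold span and the widest of any member, and the log2 fold change was 0.23 ± 0.22 (limma p = 0.31, exact sign-flip p = 0.42). Cmpk2, the nucleotide kinase gene beside Rsad2 (73.6 per kb), had 0.16 ± 0.16.

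The short effector genes were abundant, with fold changes close to 0. Bst2 (chr8:71534255-71537456), whose product tethers budding virus to the membrane, had 837.5, 1384 and 2060 normalized counts in WT (lowest, median, highest) and 667.7, 1520 and 1901 in OE/OE, with a log2 fold change of -0.02 ± 0.14. Ifi27 (chr12:103434211-103440239) had 1284, 2129 and 3098 in WT and 1025, 2571 and 3506 in OE/OE, with a log2 fold change of -0.02 ± 0.12. In both genes the groups overlapped nearly completely, and pair 5 held the lowest library. Lgals3bp, a secreted glycoprotein (963.4 per kb), had -0.07 ± 0.09, Ifi35 (668.6 per kb) 0.03 ± 0.11 and Samd9l, a restriction factor (306.2 per kb), -0.01 ± 0.11. Rtp4 (275.7 per kb) had -0.10 ± 0.17, Mx2 (81.7 per kb) 0.05 ± 0.25 and Mx1 -0.01 ± 0.22. Of these, Ifi35 and Rtp4 share 16.8% and 13.9% of their exon bases with other models, as do Herc6 (13.7%) and Gbp7 (11.3%).

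**Figure D2:**
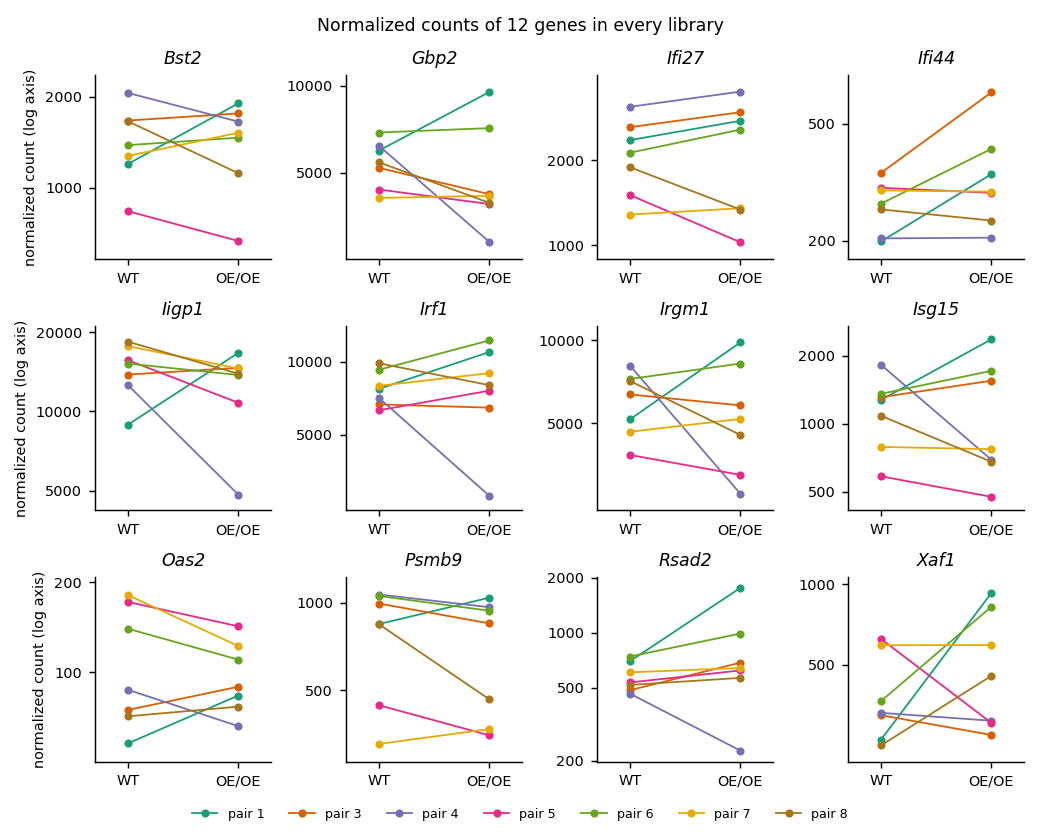
Normalized counts (log axis, scaled per gene) of the 12 members given in full, for WT and OE/OE, with a line joining the littermates of each of the 7 pairs. Lines of pair 1 mostly run upward and lines of pair 4 mostly downward, with Rsad2 at 1763 in the OE/OE mouse of pair 1 and at 227.3 in that of pair 4.

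In pair 1 and in pair 4 most members differed between littermates in the same direction, but that direction was opposite in these 2 pairs. In pair 1, 43 of the 44 members were higher in the OE/OE mouse (47.5% of all genes), with a median log2 ratio of 0.55 over the members and -0.02 over all genes. The exception was Eif2ak2 (-0.01), and the largest ratios were those of Xaf1 (1.82), Rsad2 (1.33), Ifit1 (1.29) and Mx2 (1.11). In pair 4, 4 of the 44 were higher in OE/OE (52.2% of all genes), with a median of -0.42 over the members and 0.04 over all genes. The 4 were Oas1a (1.36), Zbp1 (0.31), Ifi27 (0.18) and Ifi44 (0.01), and the lowest ratios were those of Irgm1 (-1.54), Mx2 (-1.54), Ifit1 (-1.49), Isg15 (-1.40) and Iigp1 (-1.38). Higher in pair 1 and lower in pair 4 were 39 of the 44 members, and 33.2% of all genes. A single pair has no replicate, so these ratios describe the 2 mice compared and not the genotype.

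The other 5 pairs were closer to 0. The members higher in OE/OE numbered 29 in pair 3 (51.1% of all genes, median log2 ratio of the members 0.11), 18 in pair 5 (47.7%, -0.05), 22 in pair 6 (48.7%, 0.0040), 28 in pair 7 (52%, 0.03) and 10 in pair 8 (52.9%, -0.19). Pair 8 was the most one-sided of the 5, led by Psmb9 (-0.86), Oas1a (-0.79) and Psmb8 (-0.76). Regardless of direction, the median absolute log2 ratio of the members, with that of all genes after it, was 0.55 against 0.27 in pair 1, 0.19 against 0.21 in pair 3, 0.45 against 0.43 in pair 4, 0.21 against 0.29 in pair 5, 0.11 against 0.18 in pair 6, 0.08 against 0.14 in pair 7 and 0.27 against 0.21 in pair 8. The members thus differed between littermates by more than genes in general in pairs 1 and 8. They differed by about as much in pairs 3 and 4 and by less in pairs 5, 6 and 7.

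**Figure D3:**
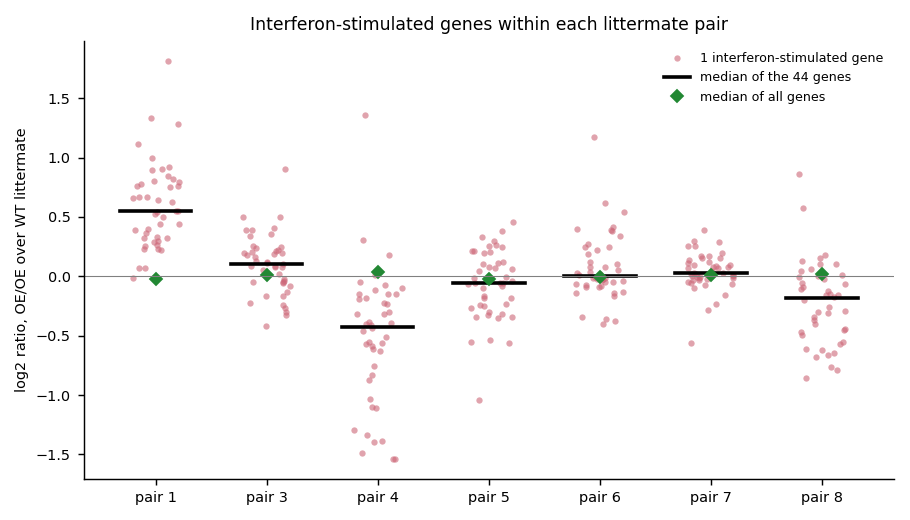
Log2 ratio of OE/OE over WT in each littermate pair for the 44 interferon-stimulated genes (points), with their median (bar) and the median of all 16124 genes (diamond). The median of the members is 0.55 in pair 1 and -0.42 in pair 4, while that of all genes stays between -0.02 and 0.04.

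Both ends of the pattern were set by OE/OE libraries. The mean log2(normalized count + 1) over the 44 members had a lowest, median and highest value of 9.79, 9.86 and 10.17 in WT and of 9.38, 9.89 and 10.39 in OE/OE, so the WT range lay within that of OE/OE. The OE/OE library of pair 1 held the highest value of 18 of the 44 members (7.55% of all genes), and that of pair 4 the lowest value of 23 members (25.3% of all genes). Every role group had a positive median in pair 1 and a negative one in pair 4. The IFIT genes were furthest from 0, with medians of 1.00 in pair 1 and -1.29 in pair 4, followed in pair 4 by the interferon-inducible GTPases (0.72 and -1.10) and by the ADP-ribosylation group (0.26 and -0.83). Antigen-processing genes (0.30 and -0.14) and nucleic acid sensors (0.31 and -0.22) were closer to 0. The 12 members with the response element in the promoter had medians of 0.72 in pair 1 and -1.07 in pair 4, the 21 without it 0.39 and -0.32, and the 11 with no listed promoter 0.55 and -0.40, a difference that was not tested.

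The calls depended on these 2 pairs. Without pair 1, limma called 7.42% of all genes and 2 of the 44 members, both lower in OE/OE: Iigp1 (log2 fold change -0.44, limma p = 0.032, exact sign-flip p = 0.063) and Dhx58 (-0.29, limma p = 0.031, exact sign-flip p = 0.031). Without pair 4, limma called 8.47% of all genes and 2 other members, both higher: Rsad2 (0.45, limma p = 0.017, exact sign-flip p = 0.031) and Ifit2 (0.30, limma p = 0.018, exact sign-flip p = 0.063). With 6 pairs the smallest exact p is 0.031. Dhx58 and Rsad2 had to reach it, because the pair left out was their only pair of the other sign. Their exact p therefore adds nothing to the limma p. The adjusted p in limma was 0.66 for Iigp1 and Dhx58, 0.53 for Rsad2 and 0.54 for Ifit2. With both pairs left out, a setting added after the data were seen, limma called 11.2% of all genes and 3 members, Rsad2 (0.27, adjusted p = 0.40), Dhx58 (-0.26, adjusted p = 0.44) and Iigp1 (-0.26, adjusted p = 0.44). In each setting the share of members called was below that of all genes, and the median over the members was -0.07 without pair 1 and 0.06 without pair 4.

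Markers of other cell types differed together with the members in some of these pairs. All 9 endothelial markers (Pecam1, Cdh5, Kdr, Tek, Tie1, Flt1, Emcn, Eng and Cldn5) were higher in the OE/OE mouse of pair 1, by 0.91 on average on the log2 scale, and all 9 were lower in that of pair 4, by -1.74. In the remaining pairs their mean log2 ratio lay between -0.16 and 0.09, as the members' median lay between -0.19 and 0.11. Their summed level ranged from 43807 to 66611 normalized counts in WT and from 16023 to 86364 in OE/OE. Adipocyte markers (Adipoq, Plin1, Lep and 5 others) also had their highest and lowest ratios in these pairs: 7 of 8 were higher in the OE/OE mouse of pair 1, by 0.53 on average, and 8 of 8 were lower in that of pair 4, by -2.26, but in the remaining pairs they lay between -1.29 and -0.51. Fibroblast markers had 6 of 8 higher in pair 1 (0.40 on average) and 5 of 8 lower in pair 4 (-0.41), and their mean ratio was lowest in pair 5 (-0.95). Leukocyte and macrophage markers (Ptprc, Cd68, Csf1r and 9 others) did not follow the same course: 10 of 12 were lower in pair 1, by -0.44 on average, and 12 of 12 were lower in pair 4, by -0.72, with sums of 6576 to 9690 in WT and 5251 to 13619 in OE/OE. Of the lymphocyte markers, 10 of 13 were in the table and 9 of the 10 were lower in the OE/OE mouse of pair 1, by -1.97, the WT mouse of that pair having the highest level of all WT mice. Epithelial markers had mean log2 ratios of -0.13 in pair 1 and 0.27 in pair 4. The part of any of these cell types in the values of the members was not tested.

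With the mean of the endothelial markers as a covariate, also added after the data were seen, limma called 7.41% of all genes and 3 of the 44 members, all higher in OE/OE: Rsad2 (0.33, adjusted p = 0.42), Ifit2 (0.23, adjusted p = 0.53) and Ifi44 (0.33, adjusted p = 0.64). With the lymphocyte markers as a covariate it called 5.2% of all genes and 0 members. Across the 7 pairs and without a covariate, limma called 3.81% of all genes. It called 3 of the 8 fibroblast markers and 5 of the 8 adipocyte markers, all lower in OE/OE. It called none of the endothelial, leukocyte, lymphocyte or epithelial markers.

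**Figure D4:**
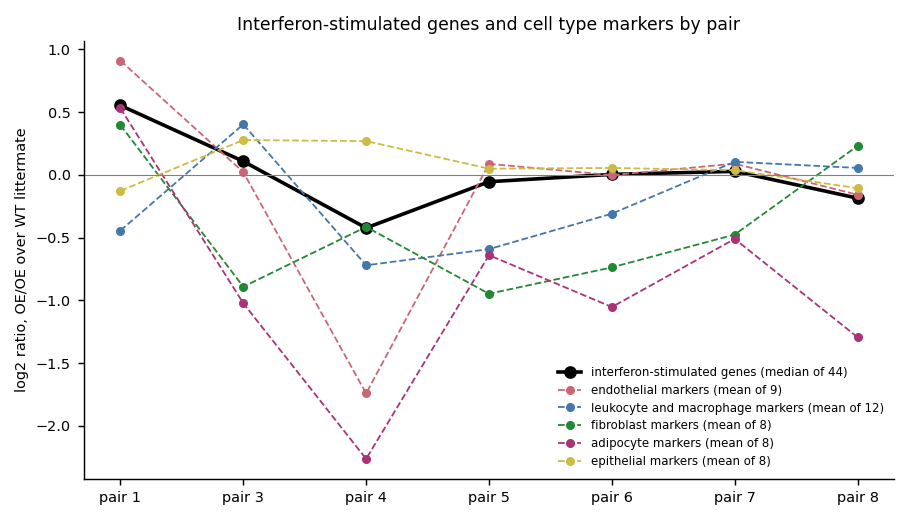
Log2 ratio of OE/OE over WT in each pair for the interferon-stimulated genes (median of 44) and for the mean of endothelial (9), leukocyte and macrophage (12), fibroblast (8), adipocyte (8) and epithelial (8) markers. The endothelial line (0.91 and -1.74) and the adipocyte line (0.53 and -2.26) are highest in pair 1 and lowest in pair 4, the same 2 pairs that hold the highest and lowest median of the members (0.55 and -0.42).

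The spread was divided between litter of origin, genotype and the remainder. The littermate pair held a median of 73.0% of a member's sum of squares on the log2 scale, and genotype 0.99%, close to the 73.9% and 1.43% of all genes. With no effect of either, the 6 and 1 of 13 degrees of freedom would give the pair 46.2% and genotype 7.69% on average. These are means, and where the pair has an effect less is left for genotype. The 0.99% can therefore not be measured against the 7.69%. The share held by the pair exceeded 50% for 37 of the 44 members and was highest for Eif2ak2 (98.5%) and Tap1 (96.7%), whose littermates differed little. It was lowest for Xaf1 (36.7%), Irf9 (43.3%) and Ifit1 (45.1%), and genotype held at most 12.1%, in Ifi44. The 5 members with the largest standard deviation between litters were Psmb9 (0.66 on the log2 scale), Isg15 (0.62), Ifi27 (0.56), Rsad2 (0.55) and Oas2 (0.50), against a median of 0.38 over the members and 0.36 over all genes.

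The differences between litters went with the length of the gene. Pair 5 had the lowest litter mean of 7 of the 8 members with under 2500 bases of exon (Isg15, Bst2, Ifi27, Ifi35, Ifit3, Oas1a, Igtp and Rtp4), with a median deviation of -0.59 from the gene's mean, while the 16 members with over 5000 bases lay at 0.25 there. Pair 4 showed the reverse, with medians of 0.25 for the short members and -0.51 for the long, and held the lowest litter mean of 13 of the 16 long members. All genes of these lengths had medians of -0.43 and 0.27 in pair 5 and of 0.36 and -0.26 in pair 4. Over the 44 members, the correlation of the litter deviation with log2 exon length was 0.76 in pair 5, 0.47 in pair 7, 0.37 in pair 8, -0.26 in pair 6, -0.38 in pair 3, -0.46 in pair 1 and -0.62 in pair 4. Over all genes it was 0.49, 0.36, 0.24, -0.06, -0.28, -0.32 and -0.43 in the same order. These points are genes from the same libraries and not independent. The correlation of the fold change between genotypes with log2 exon length was 0.22 over the members and 0.14 over all genes.

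**Figure D5:**
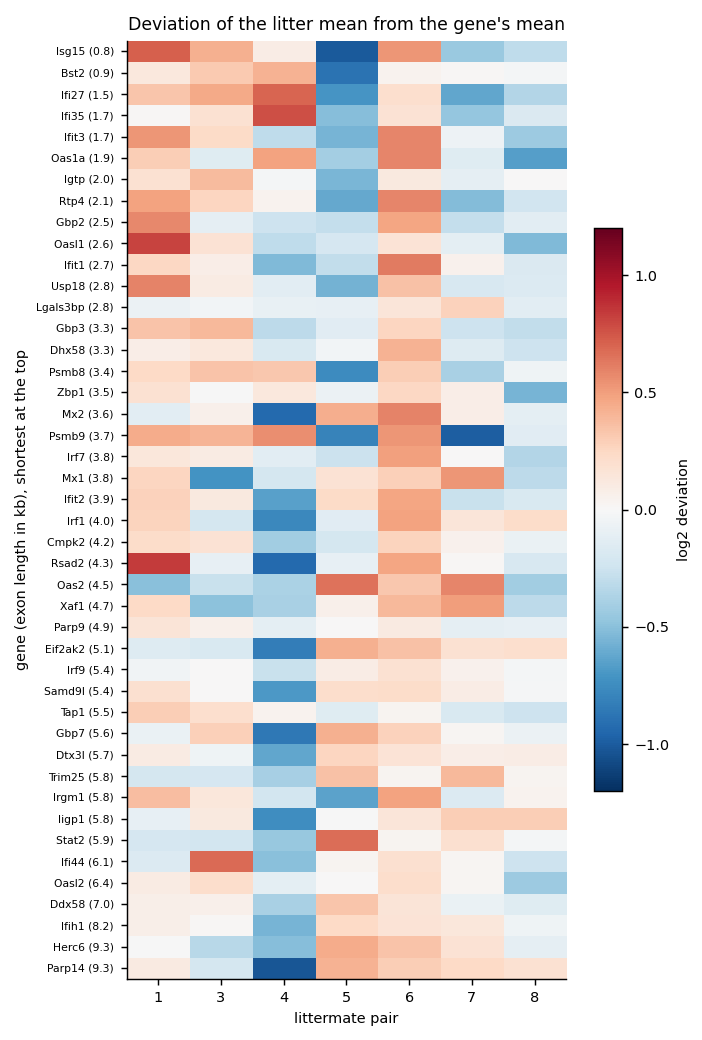
Deviation of each litter's mean log2(normalized count + 1) from the gene's mean over the 7 pairs, for the 44 members ordered by exon length, shortest at the top. Short genes are mostly low in pair 5 (median -0.59 for the 8 shortest) and long genes mostly low in pair 4 (median -0.51 for the 16 above 5000 bases).

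The genes that start and restrain the interferon response were read as the background to the members. None of the 10 interferon genes on the list (Ifnb1, Ifng, Ifne, Ifnk and 6 others) was in the table, which keeps genes with at least 10 fragments in 7 libraries. The 30 other pathway genes on the list were all present, and limma called 0 of 30, against 3.81% of all genes. At that share, 0 of 30 does not set these genes apart. The receptor genes Ifnar1 (320.6 normalized counts per kb), Ifnar2 (379.9), Ifngr1 (883.7), Ifngr2 (308.6), Ifnlr1 (417.3) and Il10rb (121.5) had log2 fold changes between -0.15 ± 0.11 (Ifngr2) and 0.07 ± 0.09 (Ifnar1). Among the kinases, Jak1 had 0.01 ± 0.09, Jak2 -0.00070 ± 0.13 and Tyk2 0.06 ± 0.08. The smallest p values in limma were those of Ptpn6, a phosphatase that restrains cytokine receptors (-0.18 ± 0.08, p = 0.057, exact sign-flip p = 0.031), and of Ticam1, the adaptor of Toll-like receptor 3 (0.23 ± 0.11, p = 0.064, exact sign-flip p = 0.11). Socs3, a feedback inhibitor of cytokine signalling, was the most abundant of the 30 at 9940 per kb and had -0.08 ± 0.34.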

How the data were processed

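Polyadenylated RNA of 14 mice was sequenced. The authors aligned reads to mm10 with TopHat2 2.0.10, counted fragments with HTSeq 0.6.0, kept genes with at least 10 fragments in 7 libraries, and deposited normalized counts (counts divided by DESeq 1.18.0 size factors, a signal rather than raw counts). Strand use in counting is not given in the sources used here. For all libraries, 100% of deposited entries came out as whole fragments (tolerance 0.01), which gave the fragment counts used for edgeR 4.0.16 and DESeq2 1.42.0.

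OE/OE was compared with WT by limma 3.58.1 (R 4.3.3, trend) on the scale log2(normalized count + 1), blocking on the pair of littermates. It replaced the study's per-gene paired test. A gene was called at an unadjusted p of 0.05 or less. Labels number the littermate pairs, and the deviations of same-numbered mice from their genotype means correlated at 0.17 to 0.75 across genes. Single members were also tested by an exact two-sided sign-flip test over 128 patterns, whose smallest p is 0.016. Pseudocounts, filters, normalizations, tools, marker covariates and left-out pairs were tried as alternatives.

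Exon lengths and overlaps came from GENCODE M21 on GRCm38, matched by identifier for 16124 of 16124 genes. Depth was 20125106 to 41835978 fragments. The intervals are those of the mean fold change. Their width rests on the spread between pairs of mice, which limma draws toward that of genes of similar level. Single pairs can lie outside the intervals. Values in full were given for the 5 members highest per kb, the 5 with the largest SD between litters, the 3 highest and the 3 lowest fold changes, and Usp22. The rule also named 1 gene outright that is not reported here. The members, lists and tests were chosen with earlier results of these data known.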

Additional observations from a re-analysis of the deposited data

Results flagged for a closer look

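In 14 of 108 groups of 7 libraries examined on the log2 scale, the highest or lowest library stood apart from the nearest other by more of the group's range than Dixon's limit allows, where chance alone flags about 1 group in 20. The groups are genes and marker lists read in the same libraries, so they are not independent and 1 unusual library can be counted many times. The OE/OE library of pair 4 was the lowest in 10 of the 14. The gap held 0.73 of the range for Dtx3l, 0.58 for Gbp7, 0.57 for Ifih1, 0.65 for Iigp1, 0.57 for Irf9, 0.73 for Mx2, 0.63 for Parp14 and 0.60 for Samd9l. For Mx2 this library had 6.42 against 8.08 for the next lowest OE/OE library, and for Parp14 10.63 against 11.94. The same library was lowest for the mean of the endothelial markers (0.62, 10.51 against 12.02). It was also lowest for the plasmacytoid dendritic cell markers (0.69, 6.57 against 7.34), where its WT littermate had 6.74. That mean rests on 3 of the 6 listed genes, Siglech, Tcf4 and Pacsin1. Ccr9, Klk1 and Cox6a2 were absent, so it does not give the number of these cells.

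Elsewhere, the WT library of pair 1 was lowest for Irf9 (0.67) and highest for the lymphocyte markers (0.58, 7.15 against 5.30). The OE/OE library of pair 8 was lowest for Zbp1 (0.68). The WT library of pair 6 was highest for the mean of the 44 interferon-stimulated genes (0.67, 10.17 against 9.92).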

How the results depend on the processing

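The number of members called was 0 in the main fit and in all alternatives but 4: between 0 and 2 with 1 pair left out (2 without pair 1 and 2 without pair 4), 3 without pairs 1 and 4 together and 3 with the endothelial markers as a covariate, the last pair of settings chosen after seeing the data. By the exact sign-flip test it was 0, and between 0 and 2 with 1 pair left out (Psmb8 and Dhx58, both lower, without pair 1, and Rsad2, higher, without pair 4). For each of these genes the pair left out was the only pair of the other sign, which fixes the exact p at its smallest. The share of all genes passing the exact test is not given here, so these counts have no background. Over all genes limma called 614, between 381 and 1366 with 1 pair left out (381 without pair 6, 1196 without pair 1, 1366 without pair 4), 1805 without pairs 1 and 4 and 1194 with the endothelial covariate. Without the replicate block, that is without the pairing, 182 genes and 0 members were called. The cause of these differences was not tested. The share of the sum of squares held by the pair ran from 68.6% to 83.7% (73.0% in the main analysis). Of single members, 10 newly passed the threshold in these settings, counting each gene once per setting, and none lost or reversed a call, since none was called. Sign is not stable: 22 members were below 0 in the main fit, 15 by the study's paired test, 25 after quantile normalization, 28 with the lymphocyte covariate, 32 without pair 1 and 12 without pair 4. With 7 pairs, the estimate for a typical member had to reach about 0.31 on the log2 scale, the median half-width of the interval, to pass the threshold. True changes of about that size or smaller could be missed. Larger ones could be missed too, above all for members with wide intervals such as Xaf1.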
